A study of Mus musculus with 8 samples.

Results

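The POU domain factors are DNA-binding proteins that join a POU-specific domain to a homeodomain. Oct4, the product of Pou5f1, keeps embryonic stem cells pluripotent together with Sox2, and its loss accompanies exit from the stem cell state. The class III factors Oct6, Brn2, Brn1 and Brn4 (Pou3f1 to Pou3f4) act in neural progenitors and their progeny, often beside Sox proteins. Brn3a (Pou4f1) is a factor of sensory neurons, Brn5 (Pou6f1) is found in the nervous system and elsewhere, and Oct1 (Pou2f1) is present in most cells. The genes described here are these 8, taken by symbol from a table of 55188 entries in which 9 other symbols begin with Pou. All 8 passed the filter on low values, which asked for 1 FPKM or more in 2 libraries or more. The class III genes, under 1 FPKM in all stem cell libraries, passed it only through libraries of induced cells. Choosing by symbol used no measured value, but the 8 were picked with earlier results of these data known.

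Messenger RNA was measured in the mouse embryonic stem cell line 46C, a line with a reporter at Sox1, and in cells of the same line with a deletion of Dip2c. Each genotype was sampled as proliferating stem cells (KSR day 0), after 4 days in KSR induction medium (KSR day 4), as stem cells of a second series (N2B27 day 0), and after 6 days in N2B27 induction medium (N2B27 day 6). Both media are used to drive stem cells towards neural cells. The 8 libraries are 1 per genotype and condition, so the WT-labelled and KO-labelled libraries of a condition served as its 2 libraries, and p-values measure only the spread between them after a common label difference is removed. The labels do not say how many clones carry the deletion or which part of the gene was deleted.

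The values are FPKM, fragments scaled by transcript length and library total, so the levels of different genes can be set side by side per length. Read counts are not given, the depth is unknown, and the number of libraries limits the precision. The FPKM of a library summed to between 509344 and 637117, and 13451 to 14335 genes reached 1 FPKM. Dip2c itself stood at 2.74 to 5.78 FPKM in all 8 libraries and did not separate the labels, which are therefore used only as names. Eif2s3y, a gene of the Y chromosome, was at 7.03 to 14.9 FPKM in the 4 WT-labelled libraries and listed at 0 in the 4 KO-labelled ones. For 4 libraries the description field names another library, and the title and genotype were followed. For the WT-labelled N2B27 day 6 library the column of the table says day 7. The 6 naive stem cell markers summed to 1201 to 1534 FPKM at day 0 and to 11.7 to 39.1 FPKM in the induced libraries. The 5 neural progenitor markers went from 6.25 to 9.80 FPKM at day 0 to 228 to 636 FPKM after induction. The endoderm markers summed to 63.1 to 236 FPKM after induction against 1.99 to 4.52 at day 0. At KSR day 4 Cxcr4 led, at 71.1 and 43.2 FPKM (WT-labelled, KO-labelled), then Foxa2, at 17.1 and 15.1. Sox17, Gata6 and Gata4 were at 0.540 to 1.75 FPKM at KSR day 4 and at 5.17 to 56.9 FPKM at N2B27 day 6. The 5 neural crest markers summed to 18.6 to 35.0 FPKM at day 0, where Foxd3, also a stem cell gene, led, to 15.3 and 14.2 FPKM (WT-labelled, KO-labelled) at KSR day 4 and to 80.8 and 48.4 FPKM at N2B27 day 6. There Pax3 and Tfap2b led, at 44.9 and 21.9 FPKM in the WT-labelled library, and Sox10 stayed under 1 FPKM in all 8 libraries. The 4 mesoderm markers summed to 7.56 to 14.1 FPKM at day 0, from T and Eomes, and to 3.06 to 8.10 FPKM after induction, with Mixl1 and Mesp1 under 1 FPKM throughout.

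The family shares its DNA-contacting helix, the third helix of the homeodomain. Its coding stretch of 36 bases is shown for each gene, from the GENCODE M21 transcripts of GRCm38, with capitals at the bases that differ from Pou5f1.
Pou5f1: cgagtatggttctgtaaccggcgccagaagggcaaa
Pou2f1: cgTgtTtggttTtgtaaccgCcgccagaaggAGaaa
Pou3f1: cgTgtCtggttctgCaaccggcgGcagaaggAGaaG
Pou3f2: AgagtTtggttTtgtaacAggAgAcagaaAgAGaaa
Pou3f3: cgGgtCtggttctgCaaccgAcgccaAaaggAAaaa
Pou3f4: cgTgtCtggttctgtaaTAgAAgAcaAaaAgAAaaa
Pou4f1: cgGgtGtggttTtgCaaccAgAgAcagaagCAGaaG
Pou6f1: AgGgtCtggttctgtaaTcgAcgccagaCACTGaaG
The 7 other genes differed from Pou5f1 at 6 to 11 of these bases, and in 1 or 2 of the 12 codons the encoded residue changed. Between any 2 of the 8 genes, the longest identical run of coding bases was 38, between Pou3f1 and Pou3f2, and per the labels each read of a pair had 150 bases. In the genome, Pou5f1 lies at chr17:35506018-35510772, Pou2f1 at chr1:165865154-166002678, Pou3f1 at chr4:124656807-124660655, Pou3f2 at chr4:22482780-22488366, Pou3f3 at chr1:42695768-42703176, Pou3f4 at chrX:110814280-110817207, Pou4f1 at chr14:104461676-104467999 and Pou6f1 at chr15:100575318-100599984 (GRCm38/mm10). Whether counting used strand is not given in the sources used here, and 4 of the genes have an annotated gene on the other strand. Those partners were at most at 2.82 FPKM, for Gm19553 across from Pou5f1. Pou3f3 lies inside AC122898.1 on the same strand, for which no value was used here, so its reads are uncertain to that extent.

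The upstream windows of Pou5f1, Pou3f2 and Pou3f3 are shown because Pou5f1 fell and the other two rose in both media. They are the 250 bases before the transcript start in RefSeq (GRCm38.p6): chr17:35505782-35506031 on the plus strand, chr4:22488367-22488616 on the minus strand and chr1:42695518-42695767 on the plus strand. Capitals mark the GC box (GGGCGG), the nuclear receptor half-site (AGGTCA) and the CCAAT box (CCAAT), each on either strand.
Pou5f1: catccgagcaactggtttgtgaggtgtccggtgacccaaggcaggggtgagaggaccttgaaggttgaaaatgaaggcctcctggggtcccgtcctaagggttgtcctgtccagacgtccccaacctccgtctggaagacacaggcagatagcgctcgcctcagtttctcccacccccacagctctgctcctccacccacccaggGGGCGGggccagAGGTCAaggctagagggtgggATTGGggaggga
Pou3f2: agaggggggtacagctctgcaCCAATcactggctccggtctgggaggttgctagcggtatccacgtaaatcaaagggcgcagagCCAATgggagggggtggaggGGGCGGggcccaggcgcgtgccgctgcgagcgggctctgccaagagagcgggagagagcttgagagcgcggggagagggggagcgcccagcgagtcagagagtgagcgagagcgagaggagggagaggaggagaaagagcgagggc
Pou3f3: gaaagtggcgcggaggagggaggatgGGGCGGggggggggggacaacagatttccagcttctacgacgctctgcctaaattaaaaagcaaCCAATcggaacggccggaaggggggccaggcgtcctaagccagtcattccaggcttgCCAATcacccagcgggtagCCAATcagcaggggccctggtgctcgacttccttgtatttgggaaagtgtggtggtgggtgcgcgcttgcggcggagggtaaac
The Pou5f1 window held 1 half-site, 1 GC box and 1 CCAAT box. The windows of Pou3f2, Pou3f3 and Pou3f4 held 2, 3 and 3 CCAAT boxes, whereas those of Pou2f1, Pou4f1 and Pou6f1 held none. For Pou3f1, the other class III gene, no window was available. Of 32851 windows of the same length, 33.8% held at least 1 CCAAT box, 32.7% at least 1 GC box and 14.0% at least 1 half-site. The share with 2 or more was not counted. The octamer ATGCAAAT, the classical POU motif, was in 1.60% of all windows and in none of the 7 windows searched here. These matches describe letters and not binding.

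Pou5f1 was the most abundant POU mRNA in stem cells and fell in both media. The KSR day 0 libraries read 699 (WT-labelled) and 631 (KO-labelled) FPKM, and the N2B27 day 0 libraries 785 and 629. Induction left 47.8 and 90.4 FPKM at KSR day 4 and 17.7 and 6.69 FPKM at N2B27 day 6. Day 0 and induced libraries did not overlap, nor did KSR day 4 and N2B27 day 6. Here and below, the share of all tested genes without such overlap was not counted. With 2 libraries per condition, a lack of overlap is therefore only a description. On the log2(FPKM + 1) scale, used for all fitted differences here with their standard errors, it fell by 3.32 ± 0.43 in KSR (limma adjusted p = 0.000882) and by 5.88 ± 0.43 in N2B27 (adjusted p = 6.49e-05). In linear FPKM the fall was 14.6-fold (WT-labelled) and 6.98-fold (KO-labelled) in KSR, and 44.5-fold and 94.0-fold in N2B27. In bulk RNA, fewer cells of a type and less RNA per cell cannot be told apart. The order of levels was both day 0 conditions, which differed by 0.08 ± 0.43 (adjusted p = 0.961), then KSR day 4, then N2B27 day 6.

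Of the 8 genes, 5 passed the test in KSR (1 lower, 4 higher), where 48.5% of all tested genes were called (28.5% higher, 20% lower). In N2B27, 6 passed (1 lower, 5 higher) against 55.9% of all tested genes, 29.7% higher and 26.2% lower. The counts of the 8 genes are to be read against these shares. The 4 class III genes could pass the filter on low values only through induced libraries. Their calls as higher are therefore not independent of that filter. The median difference over all 15967 tested genes was 0.08 in KSR and 0.04 in N2B27. These 2 comparisons use different day 0 libraries.

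**Figure D1:**
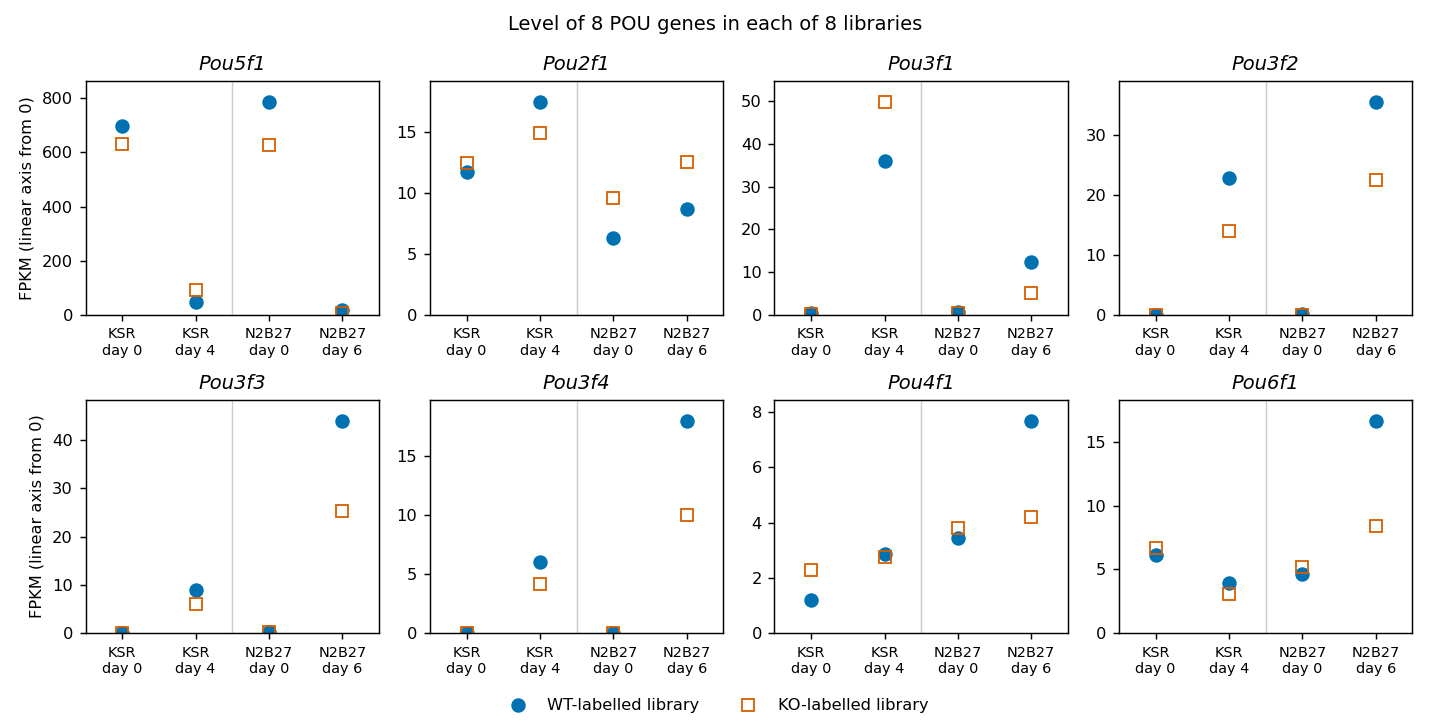
FPKM of each gene (vertical axes, linear from 0 and scaled per gene) in the 4 conditions, with 1 filled circle for the WT-labelled and 1 open square for the KO-labelled library. Pou5f1 stands at 629 to 785 FPKM at day 0 and at most at 90.4 after induction, while the 4 class III genes are under 1 FPKM at day 0 and at 4.17 FPKM or more after it.

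The class III genes were under 1 FPKM in stem cells and rose in both media. Pou3f1, which encodes Oct6, a factor of the epiblast and of early neural commitment, was at 0.314 and 0.242 FPKM (WT-labelled, KO-labelled) at KSR day 0 and at 0.546 and 0.492 at N2B27 day 0. It reached 36.1 and 49.8 FPKM at KSR day 4 but only 12.4 and 5.14 at N2B27 day 6. All 4 induced libraries lay above all 4 stem cell libraries, and both KSR day 4 libraries lay above both N2B27 day 6 libraries. The gene rose by 5.09 ± 0.35 in KSR (limma adjusted p = 6.46e-05) and by 2.58 ± 0.35 in N2B27 (adjusted p = 0.000963).

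Pou3f2 encodes Brn2, a factor of neural progenitors that is also used to convert fibroblasts into neurons. It was listed at 0 in the WT-labelled library at KSR day 0 and at 0.0136 to 0.0614 FPKM in the other stem cell libraries. It stood at 22.8 and 14.0 FPKM at KSR day 4 and at 35.4 and 22.4 FPKM at N2B27 day 6. The KSR day 4 and N2B27 day 6 libraries overlapped, since the higher of the first pair exceeded the lower of the second. Pou3f2 rose by 4.23 ± 0.24 in KSR (limma adjusted p = 3.61e-05) and by 4.80 ± 0.24 in N2B27 (adjusted p = 1.87e-05).

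Pou3f3 (Brn1), which acts with Brn2 in cortical progenitors, was at 0.0796 to 0.325 FPKM in stem cells. Its FPKM was 8.88 and 6.03 at KSR day 4 and 44.0 and 25.4 at N2B27 day 6, with no overlap between the media. The gene rose by 2.95 ± 0.27 in KSR (limma adjusted p = 0.000183) and by 4.78 ± 0.27 in N2B27 (adjusted p = 2.36e-05). Pou3f4 (Brn4), known from the striatum and the inner ear, was listed at 0 in all 4 stem cell libraries. It was at 6.03 and 4.17 FPKM at KSR day 4 and at 18.0 and 10.1 FPKM at N2B27 day 6, again without overlap. Against libraries listed at 0 no fold is given, and the tests gave limma adjusted p = 0.00026 in KSR and 4.27e-05 in N2B27.

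**Figure D2:**
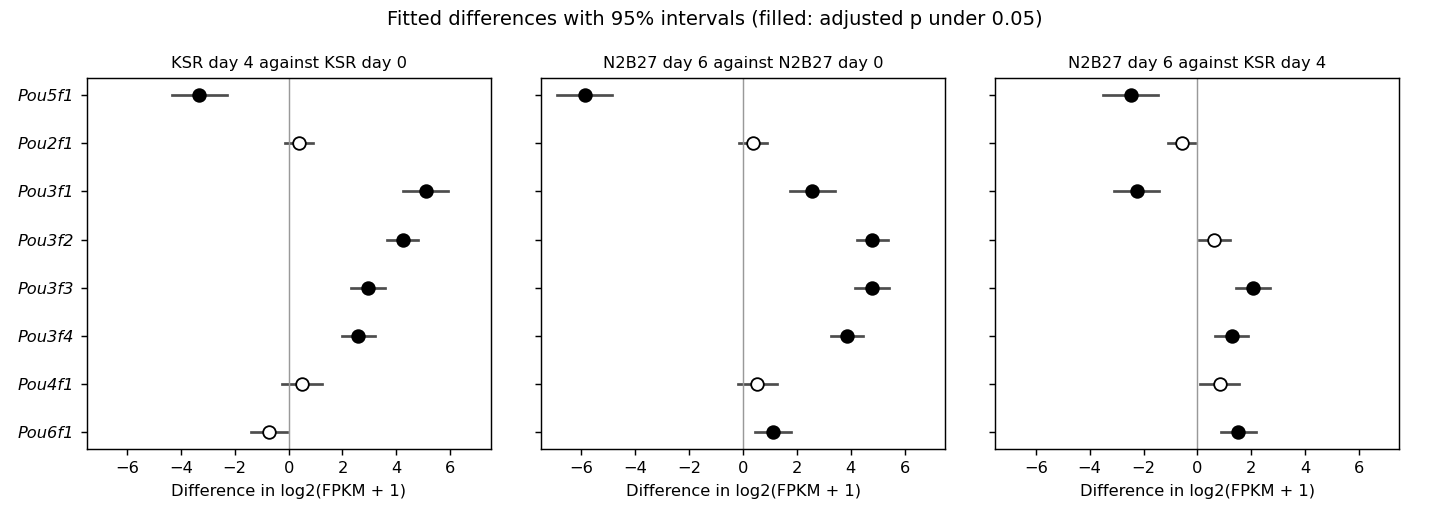
Fitted difference in log2(FPKM + 1) (horizontal axes) for each gene in 3 comparisons, with 95% intervals from limma and filled points where the adjusted p was under 0.05. Pou5f1 lies left of 0 in all 3, while Pou3f1 lies right of 0 against day 0 and at -2.26 for N2B27 day 6 against KSR day 4.

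All 4 class III mRNAs were present in both induced conditions, and 3 of them differed in level between these. Between N2B27 day 6 and KSR day 4, 5 of the 8 genes passed the test, against 9.8% of all tested genes (5.02% higher, 4.77% lower). Pou3f3 was higher in N2B27 by 2.05 ± 0.27 (limma adjusted p = 0.00967), Pou3f4 by 1.27 ± 0.25 (adjusted p = 0.0292) and Pou6f1 by 1.52 ± 0.28 (adjusted p = 0.0235). Pou3f1 was lower by 2.26 ± 0.35 (adjusted p = 0.0158) and Pou5f1 by 2.48 ± 0.43 (adjusted p = 0.0209). Pou3f2 differed by 0.63 ± 0.24, with an interval of 0.05 to 1.21, and did not pass (adjusted p = 0.153). The call of Pou3f4 was the least stable, kept in 1 of the 8 fits that left out 1 library and lost with a pseudocount of 0.1 (adjusted p = 0.083). All 5 calls were lost without the KO-labelled KSR day 4 library, when 65 genes in all were called, and 0 of the 8 passed without the filter on low values. Without the WT-labelled KSR day 4 library 1 of the 8 passed, without the WT-labelled N2B27 day 6 library 2, and without either N2B27 day 0 library 3. Medium and day differ together in this comparison and cannot be told apart. Summed markers of other cells moved with it. Endoderm was at 236 and 136 FPKM (WT-labelled, KO-labelled) in N2B27 against 91.1 and 63.1 in KSR. Neural crest was at 80.8 and 48.4 against 15.3 and 14.2, with 3 of its 4 tested markers called higher. Foxd3, the tested crest marker that was not called, was lower by 1.11 ± 0.33 (limma adjusted p = 0.0797). The neural progenitor sum was 636 and 487 FPKM against 294 and 228, of which Fabp7 was 358 and 205 against 70.1 and 53.4. Of its 5 markers, 2 were called higher, Nes and Fabp7, and 0 lower. The part of these cells was not tested.

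A comparison chosen after seeing the data asked whether the response to N2B27 differed from that to KSR. It called 2 of the 8 genes, against 3.96% of all tested genes (1.75% higher, 2.22% lower). The response of Pou3f1 was smaller in N2B27, with a difference of -2.51 ± 0.50 (limma adjusted p = 0.0462), and that of Pou3f3 larger by 1.83 ± 0.38 (adjusted p = 0.0494). Each kept its call in 1 of the 8 fits that left out 1 library, with adjusted p from 0.0485 to 0.172 for Pou3f1 and from 0.0471 to 0.191 for Pou3f3. The fall of Pou5f1 had a difference of -2.56 ± 0.60, which did not pass (adjusted p = 0.0681).

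Pou6f1, for Brn5, went opposite ways in the media. In the KSR series its FPKM went from 6.10 and 6.68 (WT-labelled, KO-labelled) to 3.97 and 3.05, and in the N2B27 series from 4.65 and 5.22 to 16.6 and 8.40. Both N2B27 day 6 libraries were above the other 6, and both KSR day 4 libraries were the lowest. It rose by 1.12 ± 0.28 in N2B27 (limma adjusted p = 0.0127). That call was lost without the WT-labelled N2B27 day 6 library, at 0.67 (adjusted p = 0.0696), and without the WT-labelled N2B27 day 0 library, at 0.87 (adjusted p = 0.111). It was also lost without the filter on low values (adjusted p = 0.0554). In KSR the difference was -0.72 ± 0.28 (adjusted p = 0.0705), which passed without the WT-labelled or the KO-labelled N2B27 day 6 library (adjusted p = 0.0247 and 0.0237). The 2 responses differed by 1.84 ± 0.39 (adjusted p = 0.0549).

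Pou2f1 and Pou4f1 did not pass in any comparison over the 8 libraries. Pou2f1 was at 11.7, 12.5, 17.5 and 14.9 FPKM in the KSR series (WT-labelled and KO-labelled at day 0, then at day 4) and at 6.35, 9.60, 8.65 and 12.6 FPKM in the N2B27 series. Its differences were 0.39 ± 0.21 in KSR (interval -0.12 to 0.90) and 0.37 ± 0.21 in N2B27 (interval -0.13 to 0.88). Both KSR day 4 libraries were the 2 highest of the 8, while the other conditions overlapped with a neighbour. Pou4f1 was at 1.20, 2.30, 2.87 and 2.74 FPKM in the KSR series and at 3.45, 3.82, 7.67 and 4.21 FPKM in the N2B27 series, so the 4 conditions did not overlap in that order. Its differences were 0.50 ± 0.31 in KSR (interval -0.24 to 1.23) and 0.54 ± 0.31 in N2B27 (interval -0.20 to 1.27), and without the KO-labelled N2B27 day 6 library the latter passed, at 1.01 (limma adjusted p = 0.0321). Between the day 0 conditions none of the 8 passed, where 2.07% of all tested genes did (1.34% higher, 0.726% lower).

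The make-up of POU mRNA turned over with induction. Of the summed FPKM of all genes with a Pou symbol, Pou5f1 held 93.8% to 96.3% in the 4 stem cell libraries and class III 0.0503% to 0.127%. At KSR day 4, Pou5f1 still held 31.2% (WT-labelled) and 48.1% (KO-labelled), beside 48.1% and 39.4% for class III. At N2B27 day 6, Pou5f1 held 9.48% and 6.75%, and class III 58.9% and 63.5%. Within class III, Pou3f1 made up 48.9% and 67.3% at KSR day 4 and 11.3% and 8.16% at N2B27 day 6. Pou3f3 went the other way, from 12.0% and 8.15% to 40.1% and 40.3%.

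**Figure D3:**
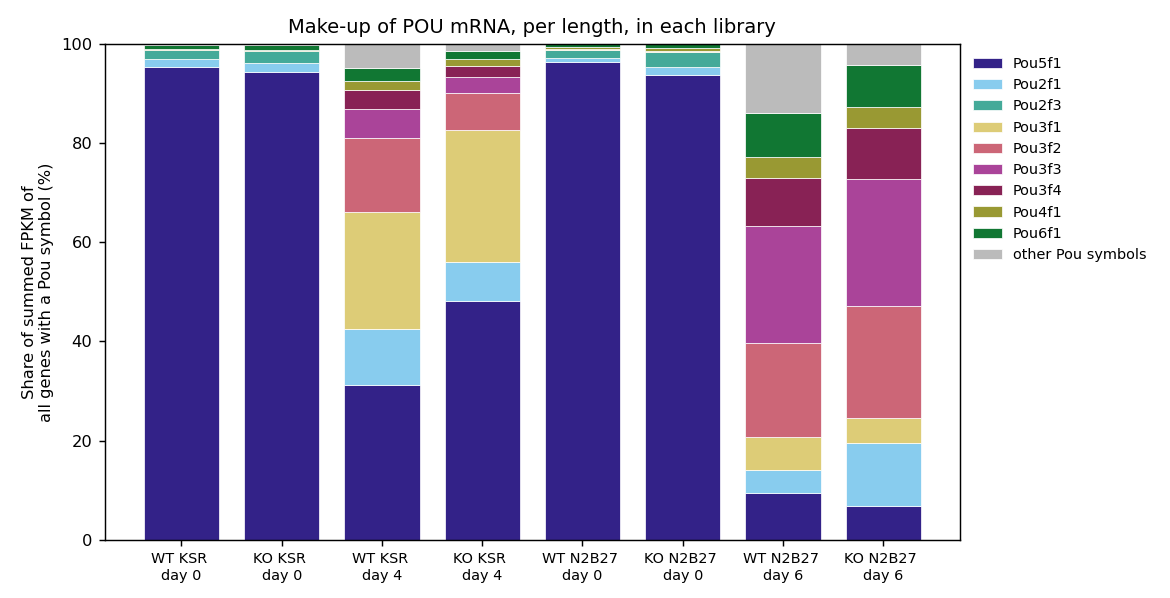
Share of each gene in the summed FPKM of all genes with a Pou symbol (vertical axis, percent), with 1 stacked bar per library. Pou5f1 fills 93.8% to 96.3% of the day 0 bars, and class III genes fill 39.4% to 63.5% of the bars after induction.

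The other POU genes held a second stem cell gene. Of 8 listed, 3 passed the filter, Pou2f2 and Pou2f3 among them. Pou2f3 (Oct11, known from skin and tuft cells) was at 13.7, 15.2, 13.8 and 21.5 FPKM in stem cells, at 0.0340 and 0.109 FPKM at KSR day 4 and listed at 0 at N2B27 day 6. It fell by 3.85 ± 0.22 in KSR (limma adjusted p = 3.25e-05) and by 4.19 ± 0.22 in N2B27 (adjusted p = 1.90e-05). Pou2f2, for Oct2, rose in N2B27 by 2.80 ± 0.51 (adjusted p = 0.00335), to 18.2 FPKM (WT-labelled) and 2.87 FPKM (KO-labelled).

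Genes listed as targets of Oct4 with Sox2 fell with Pou5f1. In KSR, 8 of 10 fell and 1 rose, with a median of -4.71, and in N2B27, 9 of 10 fell and none rose, with a median of -5.48. Over all tested genes 20% fell in KSR and 26.2% in N2B27, with medians of 0.08 and 0.04. The largest falls in KSR were those of Tdgf1, a Nodal co-receptor, by 6.20, Spp1 (osteopontin) by 5.78, Zfp42 (Rex1) by 5.06 and Fbxo15 by 4.95 on the log2 scale. Lefty1, an inhibitor of Nodal, rose in KSR by 2.51 ± 0.54 (limma adjusted p = 0.00815) and fell in N2B27 by 2.17 ± 0.54 (adjusted p = 0.0127). Its level at N2B27 day 0 was above that at KSR day 0 by 2.23 ± 0.54, which did not pass (adjusted p = 0.0911). The opposite signs for Lefty1 thus start from different day 0 levels and need not be opposite responses to the media. Between N2B27 day 6 and KSR day 4, 4 of 10 were lower and none higher: Upp1, Lefty1, Utf1 and Nanog. In that comparison 4.77% of all tested genes were lower and 5.02% higher.

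Of 14 listed regulators of Oct4, 6 rose and 5 fell in KSR, and 6 rose and 6 fell in N2B27. Over all tested genes, 28.5% rose and 20% fell in KSR, and 29.7% rose and 26.2% fell in N2B27. The nuclear receptors Nr2f1 and Nr2f2 (COUP-TFs) and Nr6a1 (GCNF) are known to repress Pou5f1, and Nr5a2 to activate it. Binding to the half-site marked above, and any effect of these factors on Pou5f1 here, was not tested. Nr2f1 rose by 6.17 ± 0.20 in KSR and 6.59 ± 0.20 in N2B27, and Nr2f2 by 4.78 ± 0.31 and 6.24 ± 0.31. Nr6a1 rose by 3.39 ± 0.20 in KSR and 1.36 ± 0.20 in N2B27, and Nr5a2 fell by 4.52 ± 0.19 in KSR and fell by 4.58 ± 0.19 in N2B27 (limma adjusted p at most 0.00123 for these 4). Esrrb fell by 5.96 in KSR and Klf5 by 5.17, both activators in stem cells. Between the induced conditions, Nr2f1 was higher in N2B27 by 1.12 and Nr2f2 by 1.69, whereas Nr6a1 and Dnmt3b, a DNA methyltransferase, were lower by 1.81 and 1.82.

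The listed partners and targets of class III factors rose beside them. Of 11, 10 were tested, and 9 rose and 1 fell in each medium, with a median of 4.15 in KSR and 4.99 in N2B27. The share of all tested genes that rose was 28.5% and 29.7%. Fabp7, a radial glia lipid carrier and Brn2 target, rose by 5.96 in KSR and 8.09 in N2B27, and Sox11 by 5.73 and 6.33. Sox3 rose by 6.69 and 5.58, and Dll1, a Notch ligand, by 4.19 and 6.10. Sox2, a partner of both Oct4 and Brn2, was the one that fell, by 0.54 ± 0.14 and 0.47 ± 0.14 (limma adjusted p = 0.0147 and 0.0216). Fabp7, Dll1 and Nes were among the 4 that were higher at N2B27 day 6 than at KSR day 4, by 2.13, 1.40 and 1.25. Of all tested genes, 5.02% were higher and 4.77% lower between these conditions.

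Sensory neuron genes were listed because Brn3a acts in those cells. Of 10, 8 were tested: 4 rose and none fell in KSR, and 6 rose and 1 fell in N2B27. Of all tested genes, 28.5% rose and 20% fell in KSR, and 29.7% rose and 26.2% fell in N2B27. In either direction 48.5% were called in KSR and 55.9% in N2B27, so the count in KSR, taken without direction, is near the background. Neurog1, a proneural factor, rose by 1.97 ± 0.24 in KSR and 3.34 ± 0.24 in N2B27, and Neurog2 rose by 3.95 ± 0.74 in N2B27 (limma adjusted p = 0.00383). Pou4f1 stood at 2.74 to 7.67 FPKM after induction.

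The label KO against WT called none of the 8 genes, in a comparison where 1 of all tested genes, Eif2s3y, passed (0.00626%) and 694 had an unadjusted p under 0.05. The fitted differences ran from -0.33 ± 0.17 for Pou3f2 to 0.22 ± 0.15 for Pou2f1, each with an adjusted p of 0.945. That of Pou5f1 was -0.21 with an interval of -0.93 to 0.51, and that of Pou3f1 -0.20 with an interval of -0.79 to 0.39, so these data do not limit a change to less than those bounds. The test of whether the label difference changed with induction called none of the 8 either. It called 1 gene in all (0.00626%), the predicted gene Gm7618, and 679 had an unadjusted p under 0.05. Eif2s3y and Gm7618 are named because they were the only calls.

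Within the single pairs, which have no replicate, the KO-labelled library was lower for 7 of the 8 genes at N2B27 day 6, where 46.0% of all tested genes were lower, and for 6 of 8 at KSR day 4, where 49.5% were. Pou5f1 in the KO-labelled library stood at 189% of the WT-labelled one at KSR day 4 and at 37.9% at N2B27 day 6. Pou3f1 stood at 138% and 41.6%, Pou3f2 at 61.3% and 63.4%, Pou3f3 at 67.9% and 57.7%, and Pou3f4 at 69.2% and 55.8%. Only Pou3f2, Pou3f3 and Pou3f4 among class III were thus lower in both induced pairs. At N2B27 day 6 other marker sums differed between the same 2 libraries: neurons at 196 FPKM (WT-labelled) and 55.7 FPKM (KO-labelled), endoderm at 236 and 136, and naive stem cells at 39.1 and 11.7. The part of these cells was not tested, and the label and a possible extra day cannot be told apart in this pair.

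**Figure D4:**
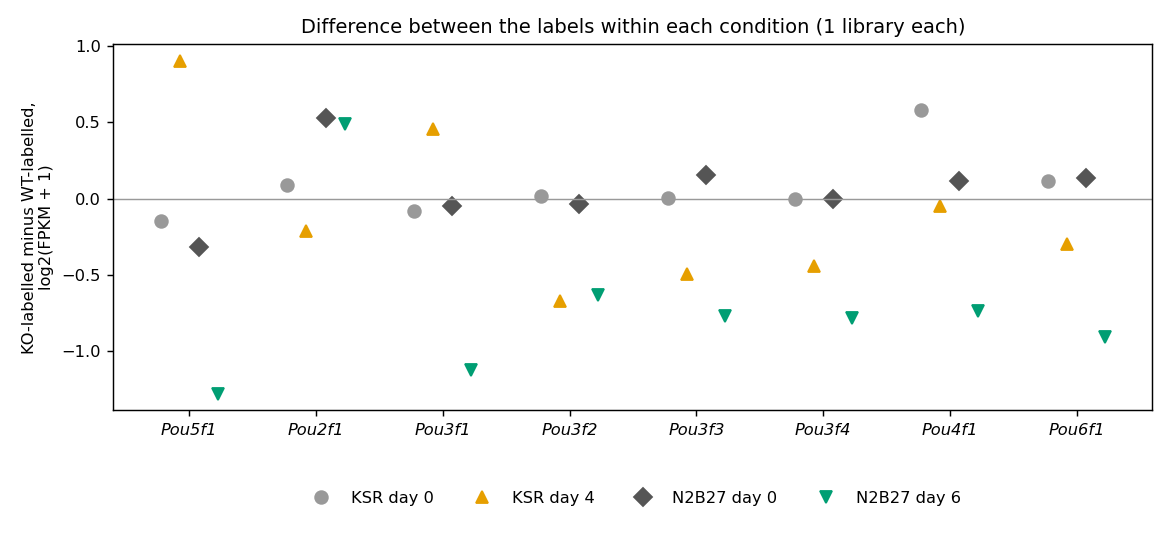
Difference between the KO-labelled and the WT-labelled library of a condition in log2(FPKM + 1) (vertical axis) for each gene, with 1 marker per condition and no error, since each is 1 pair. At N2B27 day 6 all genes but Pou2f1 lie below 0, while Pou5f1 and Pou3f1 lie above 0 at KSR day 4.

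The patterns over the 8 libraries grouped the genes. Pou3f3 and Pou3f4 had a Pearson r of 0.995 on the log2 scale and Pou3f2 and Pou3f4 one of 0.984, while Pou3f1 had 0.872 with Pou3f2 and 0.726 with Pou3f3. Pou5f1 had -0.974 with Pou3f3 and -0.685 with Pou3f1. These describe 8 libraries that share 2 states and carry no p. Of the 4617 or 4618 candidate genes per member, the most alike to Pou5f1 were Nodal (r = 0.998), Upp1 and Alpl. For Pou3f1 they were Dcun1d2 (r = 0.991), Bcr and Vcan, and for Pou3f2 Nell2 (r = 0.999), Zfp618 and Nedd9. For Pou3f3 they were Irx1 (r = 0.998), Pax3 and Lbh, and for Pou3f4 Pax3 (r = 0.9996), Tmem98 and Actr1a. Pou6f1 was most like Lama1 (r = 0.965), Epas1 and Acat1, Pou4f1 like Zfp827 (r = 0.963), Ppp1r18 and Rdh11, and Pou2f1 like Hip1 (r = 0.964), Alms1 and Depdc5.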

How the data were processed

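The deposited table holds the authors' FPKM of 8 libraries, from STAR and Cufflinks on mm10 per the submitters' processing notes; for versions, settings and counting strand nothing is stated. Per the labels' protocols, RNA was prepared with a SMARTer kit and read in pairs. Libraries were grouped by title and genotype; for 4 of them the description names another library, and the columns named DIP2C were read as KO-labelled although 2 of those names stand as the description of a WT sample. The 110 repeated entries were summed. The 15967 genes that reached 1 FPKM in 2 or more libraries were fitted with limma 3.58.1 (R 4.3.3) on log2(FPKM + 1), with condition and label as terms, a trend in eBayes and 3 residual degrees of freedom (2 for the change of the label difference). P-values were adjusted by the Benjamini-Hochberg method over all tested genes, with a threshold of 0.05. In a simulation that changed 50 genes per size, KSR day 4 against day 0 recovered 58% at a log2 change of 1 and 96% at 2 among 15967 genes, N2B27 52% and 96%, and the label 72% and 100%. The changed genes were drawn from those with a mean log2(FPKM + 1) of at least 3. Of the members only Pou5f1 and Pou2f1 had such a mean. All other genes were left unchanged, whereas far more were called in the data, so the rates need not hold for the members. Members and lists were chosen with earlier results of these data known. Listed genes were named by the largest change among those past the test, up to 4 a list and comparison; Lefty1, Sox2 and the values set beside a named gene for its other comparisons were chosen after they were seen. Genes alike to a member were the 3 with the highest Pearson r among tested genes with a mean of at least 5 FPKM and a log2 range of at least 1. Tubb3 of the neuron markers was not analysed here, and the values of 3 listed genes are not reported here.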

Additional observations from a re-analysis of the deposited data

Results flagged for a closer look

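The response to N2B27 differed from the response to KSR for 2 genes by the test of the difference itself, a comparison chosen after seeing the data. Pou3f1 had a value of -2.51 (log2, limma adjusted p = 0.0462) and Pou3f3 one of 1.83 (adjusted p = 0.0494). Pou6f1, at 1.84, moved up in both N2B27 pairs and down in both KSR pairs, and its difference did not pass the test (adjusted p = 0.0549).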

How the results depend on the processing

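The labels give no shared replicate numbers; the label term of the model compares conditions within label, and the fit without it is the unblocked alternative. The falls of Pou5f1 and the rises of the 4 class III genes against day 0 passed in KSR and in N2B27 under all 13 alternatives. Without the filter on low values, 451 genes and 0 members were called for N2B27 day 6 against KSR day 4, 67 genes between the day 0 conditions, 0 for the label, 0 for its change with induction, and 46 genes and 0 members for the difference of responses. Without a trend, 215 genes were called between the day 0 conditions and 0 members for the difference of responses. With a pseudocount of 0.1, 2 genes were called for the label and 1 member for the difference of responses, and the signs turned for Pou4f1 in the label (0.026) and in the difference of responses (-0.084), and for Pou5f1 in the change of the label difference (-0.0019). Without a genotype term, 4 members were called for the difference of responses, and under median scaling, which moved libraries by -0.07 to 0.04, Pou2f1 there turned to 0.036. The causes were not tested.

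Leaving out 1 library at a time, with the lone library of that condition assumed to vary like the others, called 4870 to 8094 genes in KSR (4870 without the WT-labelled day 4 and 4991 without the KO-labelled day 0 library), 6509 to 8225 in N2B27, 65 to 1051 between the induced conditions, 2 to 124 between the day 0 conditions, 0 to 1 for the label, 0 to 0 for its change and 1 to 539 for the difference of responses. Members called were 5 to 6 in KSR, 5 to 7 in N2B27, 0 to 4 between the induced conditions, and 0 to 2 for the difference of responses. The sign turned in some of these for the label in Pou5f1 (-0.58 to 0.15), Pou3f1 (-0.42 to 0.11) and Pou4f1 (-0.22 to 0.22), for its change with induction in Pou5f1 (-1.05 to 1.14), Pou2f1 (-0.52 to 0.18) and Pou3f1 (-1.05 to 0.52), between day 0 conditions in Pou3f2 (-0.18 to 0.29) and Pou3f3 (-0.068 to 0.50), and for the difference of responses in Pou2f1 (-0.30 to 0.28) and Pou4f1 (-0.44 to 0.51); none of these passed. Depth is unknown, so the smallest detectable level could not be given.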
